A study of Mus musculus with 2 samples.

Results

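Genes of the cornified envelope and of the epidermal differentiation complex (EDC) were followed in 2 sorted populations of tongue epithelium. They were taken by gene name, as all *Sprr* and *Lce* genes with a number, *Tgm1* to *Tgm7* and a named list of other envelope and EDC genes, which gave 60 of the 21628 entries in the table. *Flg* is not analysed here. The cornified envelope is the cross-linked protein shell that replaces the plasma membrane of a keratinocyte as it completes differentiation. Plakins form a scaffold under the membrane, transglutaminases join loricrin, involucrin and small proline-rich proteins onto it by bonds between glutamine and lysine residues, and late envelope proteins and S100-fused proteins are added as the cell dies. Many of these proteins are encoded side by side in the EDC. The dorsal tongue makes envelopes of more than 1 kind, since the hard filiform papillae, the epithelium between papillae and the taste-bearing fungiform papillae keratinize to different extents.

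Expression of these genes was examined in lingual epithelial cells of newborn (P0) *Sox2GFP* mice, a line in which green fluorescent protein reports *Sox2*. The epithelium of several pups was pooled, dissociated with enzymes and sorted by brightness, and RNAseq was run on 1 library of GFPhigh cells and 1 library of GFPlow cells, each from about 100000 cells. Both populations carry the same reporter and came from the same pool, and they are bins cut from a continuum of fluorescence, so neither was sorted as a single cell type. GFP-negative cells are not analysed here.

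The labels list 1 library per population, although the table heads each column as a mean, and each column was read here as 1 library. Differences between the libraries have no replicate check and no test was run. Levels are FPKM, reads scaled to transcript length and to the mapped reads of the library, so that levels can be set side by side between genes. A fold is the ratio of both FPKM, positive where the GFPhigh library was higher and negative where the GFPlow library was higher. A gene is called enriched at 5 FPKM or more in the higher library with a fold of at least 1.5 in size. In a bulk library, fewer cells of a type and less RNA per cell cannot be told apart. *Sox2* had an FPKM of 112 in GFPhigh and 59.0 in GFPlow cells, so the reporter gene followed the sort. The pan-epithelial markers *Epcam*, *Cdh1*, *Esrp1*, *Esrp2*, *Krt5* and *Krt14* were all at 86.8 FPKM or more in both libraries. They differed in direction, 4 being higher in GFPhigh and 2 in GFPlow cells. Their folds ran from 1.91 for *Epcam*, itself enriched in GFPhigh cells, to −1.44 for *Krt14*. The pan-epithelial scale used below multiplies GFPlow values by their median ratio, 1.18, and so rests on markers that disagree. Of 10 fibroblast markers, 6 were enriched in GFPlow cells, and 1, *Twist2*, was higher in GFPhigh cells, at 2.27 and 0.5 FPKM. The summed FPKM of the 10 was 455 in the GFPhigh and 2256 in the GFPlow library, with none at 0 in either. Schwann and neural crest markers were likewise higher in GFPlow cells (5 of 6 enriched, summed FPKM 67.9 and 272). Among the other cell types checked, 3 of 9 taste cell markers were enriched in GFPhigh and 1 in GFPlow cells. For skeletal muscle these were 1 and 1 of 6, and for endothelium 1 and 0 of 6. No marker of 5 for melanocytes or of 6 for leukocytes was enriched. Markers under 5 FPKM in both libraries could not be called. Those that reached it were 5 for taste cells, 3 for muscle, 2 for endothelium, 1 for leukocytes and 0 for melanocytes. Of all 10760 genes at 5 FPKM in either library, 9.48% were enriched in GFPhigh and 8.90% in GFPlow cells.

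Envelope genes differed between the populations in both directions. Of the 60 members, 20 reached 5 FPKM in at least 1 library, and 18 of them did so in both. Of the 20, 11 were enriched in GFPhigh cells (55.0%) and 5 in GFPlow cells (25%), while among all 10760 genes at 5 FPKM in either library the shares were 9.48% and 8.90%. The 11 were *Sprr1a*, *Sprr3*, *Tgm1*, *Tgm3*, *Evpl*, *Ppl*, *Dmkn*, *Sbsn*, *Crct1*, *Asprv1* and *Casp14*, and the 5 were *Sprr1b*, *Tchh*, *Rptn*, *Crnn* and *Cdsn*. *Krtdap*, *Lor*, *Tgm5* and *Lce3c* were enriched in neither. With a minimum of 1 FPKM in place of 5 FPKM, 13 and 11 of 29 members were enriched in GFPhigh and GFPlow cells, beside 11.9% and 12.1% of all genes. With no minimum, where a gene listed at 0 in 1 library also counts, these were 18 and 29 of 55 members, beside 18.1% and 18.8% of all genes. Of the members that did not reach 5 FPKM in either library, 35 were above 0 and 5 were at 0 in both libraries. Of these 40, 26 were higher in GFPlow cells and 9 in GFPhigh cells. The 26 include 17 *Lce* genes, which are copies of each other, and 10 genes listed at 0 in GFPhigh cells. The same count was not made over all genes under 5 FPKM, so it is not read as a trait of the members. Over the 55 members above 0 in at least 1 library, the median difference on the log2(FPKM + 1) scale was −0.16, beside −0.02 over all genes. The median was 0.45 when only the 27 members whose mean was 1 FPKM or more were kept, a filter not applied to all genes. Over the 20 members at 5 FPKM in either library it was 0.62, beside −0.04 over all genes at 5 FPKM.

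**Figure D1:**
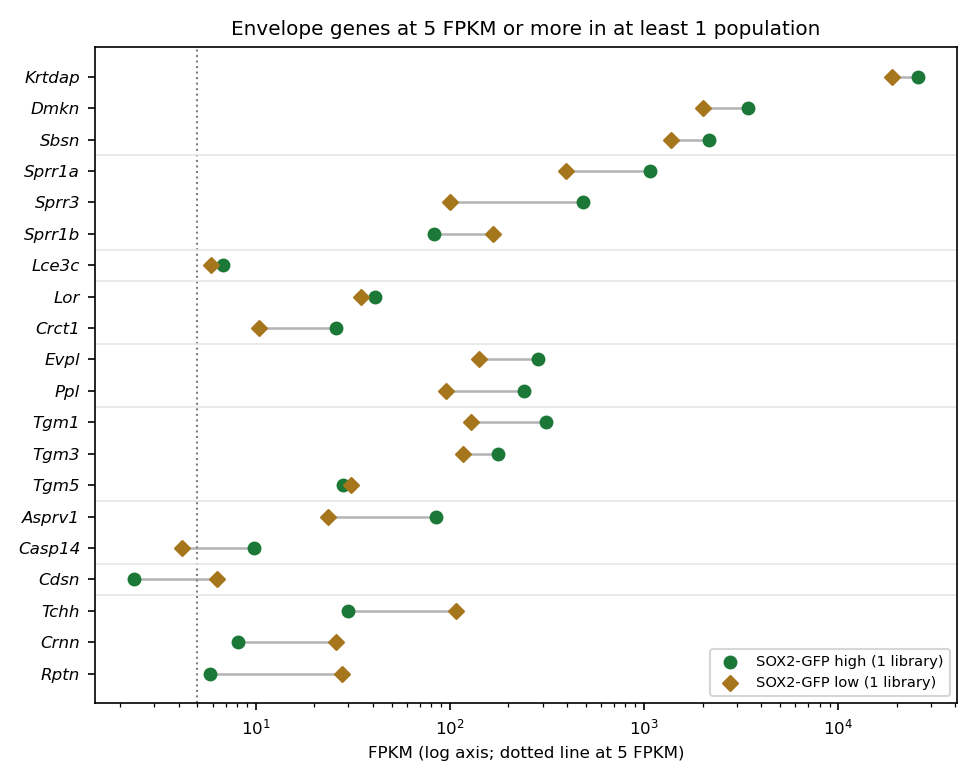
FPKM (x axis, log scale) of the 20 members at 5 FPKM or more in at least 1 population, in GFPhigh (green circles) and GFPlow (brown diamonds) cells, with 1 library each and thin lines between role groups. *Sprr1a*, *Sprr3*, the plakins, *Tgm1* and the proteases lie to the right in GFPhigh cells, and *Sprr1b*, *Cdsn*, *Tchh*, *Crnn* and *Rptn* lie to the right in GFPlow cells.

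The most abundant members were *Krtdap*, *Dmkn* and *Sbsn*, which lie next to each other within 39.6 kb of chromosome 7 and encode secreted proteins of suprabasal keratinocytes. *Krtdap* (ENSMUSG00000074199, chromosome 7, 30787896–30791097) was at 25624 FPKM in GFPhigh and 18788 FPKM in GFPlow cells (fold 1.36), and was at rank 3 and rank 2 of all genes in these libraries. It was under the threshold for enrichment. *Dmkn* (chromosome 7, 30763756–30781063), which encodes dermokine, was at 3426 and 2019 FPKM (fold 1.70). *Sbsn* (chromosome 7, 30751471–30756134), which encodes suprabasin, was at 2162 and 1378 FPKM (fold 1.57). All 3 were higher in GFPhigh cells, and together they held 91.5% of the FPKM summed over members in GFPhigh cells and 93.9% in GFPlow cells. The folds of *Sbsn* and *Dmkn* depend on the scale. On a TPM scale, where all FPKM of a library are made to sum to the same total, the fold of *Sbsn* was 1.47. With GFPlow values scaled to the pan-epithelial markers, the folds were 1.33 for *Sbsn* and 1.43 for *Dmkn*. Without these 3 genes, the summed FPKM of members was 2905 in GFPhigh and 1447 in GFPlow cells, a fold of 2.01.

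The small proline-rich proteins are short precursors that are cross-linked into the envelope as bridges between other proteins. *Sprr1a* (ENSMUSG00000050359, chromosome 3, 92483952–92485895) was at 1067 FPKM in GFPhigh and 397 FPKM in GFPlow cells (fold 2.68). *Sprr3* (ENSMUSG00000045539, chromosome 3, 92456502–92458720), a gene of internal stratified epithelia such as esophagus and oral mucosa, was at 484 and 100.02 FPKM (fold 4.84). Their close relative and neighbor *Sprr1b* (ENSMUSG00000048455, chromosome 3, 92436809–92438789) went the other way, with an FPKM of 83.0 in GFPhigh and 167 in GFPlow cells, a fold of −2.01. *Sprr1b* and *Sprr1a* start 47.1 kb apart and *Sprr3* lies between them. None of the 50-nt windows of the 3 transcripts occurs in a transcript of another gene, so reads that match exactly could be told apart. The mix of these precursors thus differed between the libraries. The FPKM of *Sprr1a* was 12.8 times that of *Sprr1b* in GFPhigh cells and 2.38 times in GFPlow cells. The FPKM of *Sprr3* was 5.83 times that of *Sprr1b* in GFPhigh cells and 0.599 times in GFPlow cells. *Sprr4* was low, at 0.64 and 0.58 FPKM, about 1 read in each library.

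Of the 11 *Sprr2* genes, none reached 5 FPKM, 6 were higher in GFPhigh cells, 2 were higher in GFPlow cells and 3 were at 0 in both libraries. *Sprr2d* had an FPKM of 0.77 in GFPhigh and 0.07 in GFPlow cells, or about 10 reads and 1 read at the depth estimated from the low FPKM. *Sprr2f* had an FPKM of 0.82 and 0.08, again about 9 reads and 1 read. *Sprr2k*, which lies at the end of the *Sprr2* array nearest *Sprr1b*, was at 0.85 FPKM in GFPhigh and 2.51 FPKM in GFPlow cells (fold −2.95) from about 10 and 39 reads. *Sprr2h* was nearly even, at 1.84 and 2.32 FPKM. The highest value in the family was that of *Sprr2a3*, with 3.69 FPKM in GFPhigh cells and a listed 0 in GFPlow cells. This value is uncertain, because 61.1% of its 50-nt windows also occur in another gene, mostly *Sprr2a1*. Of the windows of *Sprr2a1* and *Sprr2a2*, 96.3% and 96.5% are shared, and both are listed at 0 in both libraries, as is *Sprr2e*. *Sprr2b*, *Sprr2i* and *Sprr2j-ps* were between 0.16 and 0.93 FPKM.

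Because *Sprr* neighbors differed in direction while lying within one array, the sequence before their starts is shown for the genes on which this turns, with the same for *Crnn* and *Rptn* of the S100-fused group. Each window has 300 bases, 250 before and 50 from the annotated start on, from RefSeq on GRCm38.p6, the build named mm10. Such windows were found for 54 of the 60 members, and not for *Crct1*, *Evpl*, *Lce1f*, *Ppl*, *Sprr2j-ps* or *Tgm2*. Capitals mark matches on either strand to the letters TGANTCA (AP-1), CCACCC (KLF), AACCNGTT (GRHL) or ATGCAAAT (octamer), factors known to act on keratinocyte genes. A match describes letters and not a bound site.
*Sprr1a*, chr3:92485832-92486131, minus strand, enriched in GFPhigh cells: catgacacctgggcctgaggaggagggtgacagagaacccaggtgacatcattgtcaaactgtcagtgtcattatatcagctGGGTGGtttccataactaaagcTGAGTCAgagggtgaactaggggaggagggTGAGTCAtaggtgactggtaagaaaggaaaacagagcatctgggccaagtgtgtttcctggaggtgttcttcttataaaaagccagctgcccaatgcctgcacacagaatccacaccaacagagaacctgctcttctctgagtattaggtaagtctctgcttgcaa
*Sprr3*, chr3:92458671-92458970, minus strand, enriched in GFPhigh cells: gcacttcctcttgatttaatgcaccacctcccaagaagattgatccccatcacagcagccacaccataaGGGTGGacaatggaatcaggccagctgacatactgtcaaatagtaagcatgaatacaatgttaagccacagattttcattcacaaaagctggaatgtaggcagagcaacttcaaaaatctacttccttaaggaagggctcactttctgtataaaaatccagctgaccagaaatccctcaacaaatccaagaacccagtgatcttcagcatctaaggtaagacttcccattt
*Sprr1b*, chr3:92438730-92439029, minus strand, enriched in GFPlow cells: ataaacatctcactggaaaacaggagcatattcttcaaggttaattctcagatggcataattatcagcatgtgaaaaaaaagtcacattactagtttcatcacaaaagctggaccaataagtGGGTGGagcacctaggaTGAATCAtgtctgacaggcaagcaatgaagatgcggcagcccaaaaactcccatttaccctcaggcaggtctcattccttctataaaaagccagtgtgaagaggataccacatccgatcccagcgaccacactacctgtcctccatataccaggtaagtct
*Sprr2d*, chr3:92338890-92339189, plus strand: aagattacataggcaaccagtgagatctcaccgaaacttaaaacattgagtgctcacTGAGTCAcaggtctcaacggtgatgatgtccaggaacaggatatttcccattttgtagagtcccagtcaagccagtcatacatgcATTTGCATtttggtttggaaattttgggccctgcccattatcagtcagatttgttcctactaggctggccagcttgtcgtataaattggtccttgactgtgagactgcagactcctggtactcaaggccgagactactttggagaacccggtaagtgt
*Sprr2k*, chr3:92432332-92432631, plus strand: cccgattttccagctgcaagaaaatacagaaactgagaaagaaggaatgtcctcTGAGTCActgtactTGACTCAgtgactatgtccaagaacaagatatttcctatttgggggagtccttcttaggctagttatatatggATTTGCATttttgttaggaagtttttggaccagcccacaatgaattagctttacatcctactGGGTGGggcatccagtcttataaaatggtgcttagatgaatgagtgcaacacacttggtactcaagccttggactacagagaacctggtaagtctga
*Crnn*, chr3:93144539-93144838, plus strand, enriched in GFPlow cells: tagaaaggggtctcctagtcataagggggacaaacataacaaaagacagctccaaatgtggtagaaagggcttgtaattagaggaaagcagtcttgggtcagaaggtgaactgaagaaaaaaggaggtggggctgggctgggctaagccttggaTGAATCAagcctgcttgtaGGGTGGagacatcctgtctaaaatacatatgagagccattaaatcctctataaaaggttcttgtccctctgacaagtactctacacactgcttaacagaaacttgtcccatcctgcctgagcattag
*Rptn*, chr3:93393449-93393748, plus strand, enriched in GFPlow cells: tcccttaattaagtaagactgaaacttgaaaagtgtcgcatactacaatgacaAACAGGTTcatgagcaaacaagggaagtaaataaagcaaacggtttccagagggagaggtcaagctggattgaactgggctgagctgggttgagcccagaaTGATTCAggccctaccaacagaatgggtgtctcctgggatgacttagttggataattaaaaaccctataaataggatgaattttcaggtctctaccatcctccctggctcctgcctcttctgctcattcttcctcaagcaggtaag

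The windows of *Sprr1a* and *Sprr1b* both hold the AP-1 letters, *Sprr1a* with the first base at positions −146 and −116 from the start and *Sprr1b* at −111, and both hold the KLF letters. The window of *Sprr3* holds the KLF letters alone. Of the 10 *Sprr2* windows, 7 (*Sprr2b*, *Sprr2d*, *Sprr2e*, *Sprr2f*, *Sprr2h*, *Sprr2i* and *Sprr2k*) hold the octamer between −112 and −108, and no other member does. Those of *Sprr2a1*, *Sprr2a2* and *Sprr2a3* hold none of the 4 motifs. *Sprr2d* and *Sprr2k*, of which one was higher in GFPhigh and the other in GFPlow cells, both have it. In *Crnn* and *Rptn*, the AP-1 letters begin at the same place, −96. The AP-1 letters were found in windows of 18 of 54 members (33.3%) and in 7.81% of all 32851 promoter windows of the table. Among the members called enriched they were in 3 of 8 in GFPhigh and 3 of 5 in GFPlow cells. The KLF letters were in 17 of 54 members (31.5%) and in 31.5% of all windows. They were in 7 of 8 members enriched in GFPhigh cells, 3 of 5 enriched in GFPlow cells and 7 of 41 enriched in neither. Only 4 members at 5 FPKM or more were enriched in neither. The others of these 41 lay under 5 FPKM in both libraries and could not be called. The last share thus mostly describes low genes, and a link between the letters and enrichment was not tested. The octamer was in 13% of members and 1.74% of all windows, and the GRHL letters in 3.70% and 2.09%. A member with several windows was counted if any of them matched, while the share of all windows is per window, so these shares are not fully alike. Members are not independent here, because *Sprr2* genes and *Lce* genes are copies of each other.

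Transglutaminases join the envelope proteins to one another. *Tgm1* (ENSMUSG00000022218, chromosome 14, 55700009–55713926), the membrane-bound enzyme of keratinocytes, was at 311 FPKM in GFPhigh and 128 FPKM in GFPlow cells (fold 2.43). *Tgm3* (ENSMUSG00000027401, chromosome 2, 130012349–130050399), the soluble epidermal enzyme also known from hair follicles, was at 177 and 117 FPKM (fold 1.52). On the TPM scale the fold of *Tgm3* was 1.42 and scaled to the pan-epithelial markers 1.28, both under the threshold. *Tgm5*, another epidermal enzyme, was at similar FPKM in both libraries, 28.1 and 31.1. *Tgm1* and *Tgm3* were close in level in GFPlow cells, with a ratio of 1.10, and further apart in GFPhigh cells, with a ratio of 1.75. The other 4 were low and all higher in GFPlow cells. *Tgm7*, which lies next to *Tgm5*, was at 0.29 and 2.19 FPKM (fold −7.55) from about 16 and 153 reads. *Tgm6*, which lies next to *Tgm3*, was at 0.04 and 1.52 FPKM (fold −38.0) from about 4 and 174 reads. *Tgm2*, the widely expressed tissue enzyme, had an FPKM of 2.16 and 3.76. *Tgm4*, known from prostate, had an FPKM of 0.25 and 0.57, and 22% of its windows are shared with another gene, mostly *Zdhhc3*.

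The plakins *Evpl* and *Ppl*, which encode envoplakin and periplakin, link the envelope to desmosomes and keratin filaments, and both were enriched in GFPhigh cells. *Evpl* (ENSMUSG00000034282, chromosome 11, 116220559–116238077) was at 283 FPKM in GFPhigh and 141 FPKM in GFPlow cells (fold 2.01). *Ppl* (ENSMUSG00000039457, chromosome 16, 5086291–5132421) was at 241 and 95.5 FPKM (fold 2.52). The proteins are known to pair with each other, and the ratio of the FPKM of *Evpl* to that of *Ppl* was 1.17 in GFPhigh cells and 1.48 in GFPlow cells. Of the bulk envelope proteins, *Lor* (chromosome 3, 92080271–92083142), the major glycine-rich protein of the epidermal envelope, was at 41.2 and 34.6 FPKM, a fold of 1.19. *Ivl*, which encodes the early scaffold protein involucrin, was far lower, at 0.67 and 2.19 FPKM, a fold of −3.27 from about 32 and 135 reads. *Crct1* (chromosome 3, 93014205–93015687), a cysteine-rich gene within the EDC, was at 25.98 and 10.4 FPKM (fold 2.49). The plakins, *Sprr1a*, *Sprr3* and *Sprr1b* were thus at higher FPKM than *Lor* and *Ivl* in both libraries.

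The 2 proteases among the members were also higher in GFPhigh cells, which does not hold for every protease of cornification (see *Klk14* below). *Asprv1* (ENSMUSG00000033508, chromosome 6, 86628164–86629710), a retroviral-like aspartic protease that cleaves profilaggrin, was at 84.9 and 23.55 FPKM (fold 3.60). *Casp14* (ENSMUSG00000005355, chromosome 10, 78711991–78718294), the caspase of cornifying cells, was at 9.76 and 4.19 FPKM (fold 2.33). In contrast, *Cdsn* (ENSMUSG00000039518, chromosome 17, 35552128–35557180), which encodes corneodesmosin, the glue between cornified cells, was at 2.36 and 6.31 FPKM (fold −2.67). *Casp14* and *Cdsn* each reached 5 FPKM in 1 library only.

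S100-fused proteins carry a calcium-binding domain before a long run of repeats and bind keratin filaments or the envelope, and 5 of the 6 members were higher in GFPlow cells. *Tchh* (ENSMUSG00000052415, chromosome 3, 93442330–93449077), which encodes trichohyalin of the inner root sheath and of filiform papillae, was at 29.96 FPKM in GFPhigh and 108 FPKM in GFPlow cells (fold −3.60). *Rptn* (ENSMUSG00000041984, chromosome 3, 93393699–93399442), which encodes repetin, was at 5.82 and 27.7 FPKM (fold −4.75). *Crnn* (ENSMUSG00000078657, chromosome 3, 93144787–93149819), which encodes cornulin of squamous epithelia, was at 8.08 and 25.9 FPKM (fold −3.21). These were the members with the largest folds toward GFPlow cells at 5 FPKM or more. *Tchhl1* had an FPKM of 0.04 and 0.49, about 2 and 33 reads, and *Hrnr*, which encodes hornerin, 0.03 and 0.15, about 9 and 59 reads. *Flg2* (chromosome 3, 93197278–93221391), which encodes filaggrin-2, was the exception, with an FPKM of 2.58 in GFPhigh and 0.27 in GFPlow cells, a fold of 9.56. Over the merged exons of its 2 annotated transcripts, 20803 nt, these low FPKM come to about 1462 and 199 reads. The numbers would be lower if the expressed transcript is shorter. The levels of *Sprr1a* and *Tchh* show the contrast between the groups, since the FPKM of *Sprr1a* was 35.6 times that of *Tchh* in GFPhigh cells and 3.68 times in GFPlow cells.

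The late cornified envelope genes encode small cysteine- and glycine-rich proteins that are added last in the epidermis, and they were barely detected. Of 21 members, only *Lce3c* reached 5 FPKM, at 6.79 and 5.91, and 35.7% of its windows are shared, mostly with *Lce3f*. The 14 *Lce1* genes were each at 0.54 FPKM or less. In GFPhigh cells only *Lce1b*, *Lce1c* and *Lce1f* were above 0, at 0.06 to 0.07 FPKM, about 1 read each. In GFPlow cells 13 of the 14 were above 0, led by *Lce1a2* at 0.54 FPKM and *Lce1a1* at 0.50 FPKM, about 10 and 9 reads. Summed over the family, this came to about 3 reads in GFPhigh and 72 reads in GFPlow cells, or 0.200 and 3.96 FPKM. All 13 genes above 0 were higher in the GFPlow library, but 10 of them are listed at 0 in GFPhigh cells and could only be higher there. Each gene alone rests on at most 10 reads. The genes are also copies that share windows, so they do not count as separate observations of a direction. Of the 6 *Lce3* genes, 4 were higher in GFPlow cells, among them *Lce3a* at 0.36 and 1.2 FPKM and *Lce3b* at 0.10 and 0.95 FPKM. *Lce3d* was at 0.26 and 0.11 FPKM, *Lce3e* at 0.18 and 0.23 FPKM and *Lce3f* at 0.09 and 0.46 FPKM. *Lce1m* and *Lce6a* are listed at 0 in both libraries. Up to 49.3% of the windows of an *Lce* gene occur in another gene, so reads may have been split between copies.

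**Figure D2:**
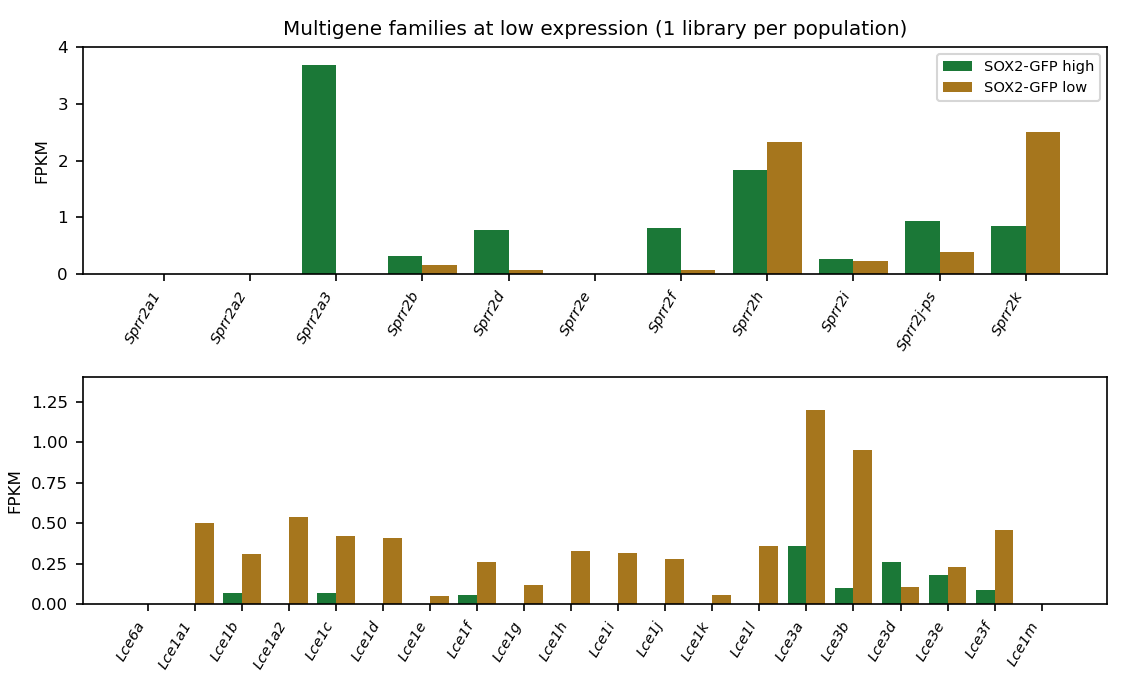
FPKM (y axes) of the *Sprr2* genes (top) and the *Lce* genes other than *Lce3c* (bottom) in chromosomal order, in GFPhigh (green bars) and GFPlow (brown bars) cells, with 1 library each. *Lce1* bars are almost all brown and none exceeds 0.54 FPKM, while *Sprr2* genes are mixed, with *Sprr2a3* at 3.69 FPKM in GFPhigh cells and *Sprr2k* at 2.51 FPKM in GFPlow cells.

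The labels give about 75000000 reads per sample. Depth was estimated as the number of mapped reads at which the largest share of low FPKM of short genes with a single transcript came to a whole read. This gave 27500000 reads for GFPhigh cells, with 63.2% of 171 values within 0.15 of a whole read, and 35750000 reads for GFPlow cells, with 61.9% of 189 values. Both are rough, since the remaining values did not come to whole reads. *Lce* genes were not used to find these depths, and 7 of 8 low *Lce* values in GFPhigh cells and 11 of 13 in GFPlow cells lay within 0.15 of a whole read. On a transcript of 700 nt, as in the *Lce* genes, 1 read is then worth 0.0727 FPKM in GFPhigh and 0.0559 FPKM in GFPlow cells. The read numbers given here are such estimates. They use the merged exons of a gene, so they can be too high for genes with several transcripts.

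Within the EDC, 45 members span 1392 kb of chromosome 3, and the direction of difference changed from block to block. From the *Lor* end, *Lor* was nearly even and the *Sprr2* genes were mixed. Next came the *Sprr2k* and *Sprr1b* pair, both higher in GFPlow cells, and directly after it *Sprr3* and *Sprr1a*, higher in GFPhigh cells. *Ivl* and the *Lce1* block that follows were higher in GFPlow cells at low levels. Then *Crct1* was enriched in GFPhigh cells between the *Lce3* genes and *Crnn*. The last 327 kb, from *Crnn* to *Tchhl1*, held 3 of the 5 members enriched in GFPlow cells, with *Flg2* lying between *Crnn* and *Hrnr* as the exception. Of the 19 EDC genes outside the member list, 12 reached 5 FPKM, and 5 were enriched in GFPhigh and 1 in GFPlow cells. Among all genes at 5 FPKM these shares were 9.48% and 8.90%. Among them *Pglyrp3*, a peptidoglycan recognition protein, had a fold of 2.08 and *S100a6* of 1.96, while *S100a4*, a gene also expressed by fibroblasts, had a fold of −2.04.

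**Figure D3:**
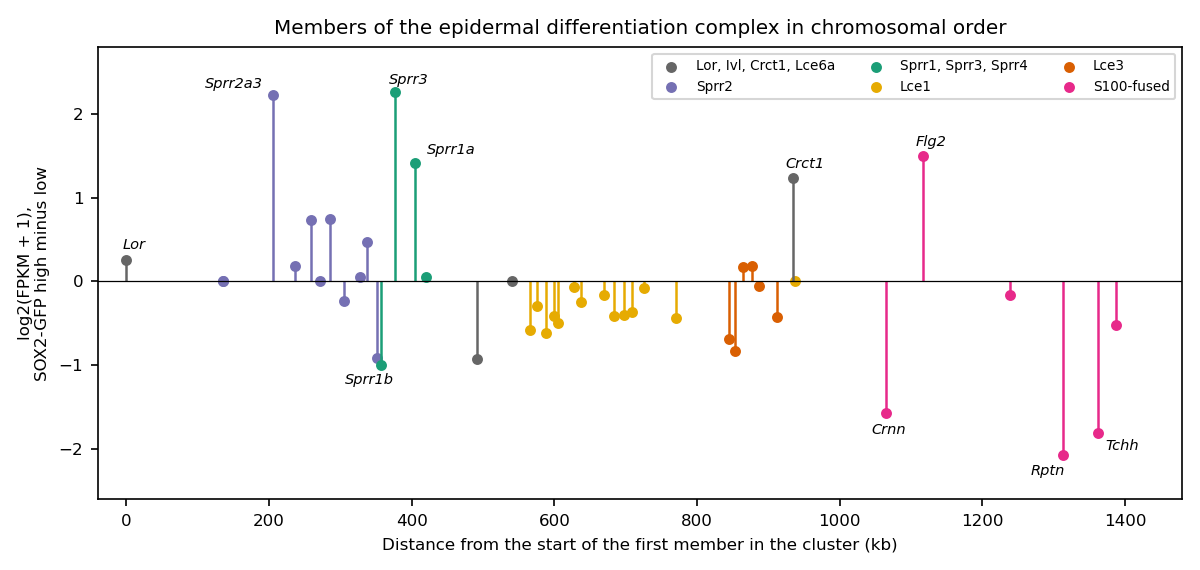
Difference, GFPhigh minus GFPlow, in log2(FPKM + 1) (y axis) for the 45 members on chromosome 3 against their distance in kb from the start of *Lor* (x axis), with colors for gene families. Positive values mark *Sprr3* (2.26), *Sprr1a* (1.42) and *Crct1* (1.24), and negative values *Sprr1b* (−1.0), *Crnn* (−1.57), *Rptn* (−2.07) and *Tchh* (−1.81).

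Other genes of cornification were examined as lists. Of 36 partner genes outside the EDC, such as desmosome genes, protease inhibitors and lipid enzymes, 32 reached 5 FPKM. Of these, 13 were enriched in GFPhigh and 2 in GFPlow cells, beside 9.48% and 8.90% of all genes at 5 FPKM. *Stfa1*, a cysteine protease inhibitor of a family with closely similar copies, was at 75.5 and 4.33 FPKM (fold 17.4), and the related *Csta1* had a fold of 3.35. The 2 enriched in GFPlow cells were *Klk14*, a protease that cleaves links between cornified cells (9.32 and 28.97 FPKM, fold −3.11), and *Dsc1*, a desmosomal cadherin of upper layers (fold −1.56). Of 28 regulators of differentiation, 26 reached 5 FPKM, and 6 were enriched in GFPhigh and 1 in GFPlow cells, beside the same shares of all genes. The largest folds toward GFPhigh cells were those of the ETS factor *Elf3* (115 and 38.25 FPKM, fold 3.0) and the AP-1 subunit *Fosl1* (103 and 47.2 FPKM, fold 2.19), and the gene enriched in GFPlow cells was *Maf* (fold −2.58). *Klf4*, known for its part in barrier formation, was at 600 and 685 FPKM, a fold of −1.14.

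Of 14 suprabasal keratins, 12 reached 5 FPKM. Of these, 5 were enriched in GFPhigh cells, led by *Krt4* (fold 6.11) and *Krt6b* (fold 3.34), and 2 in GFPlow cells, *Krt24* (fold −7.33) and *Krt76* (fold −4.26). The shares among all genes at 5 FPKM were 9.48% and 8.90%. Of 10 hair-type keratins, 6 reached 5 FPKM, and all 6 were enriched in GFPlow cells. The summed FPKM of the 10 was 75.8 in GFPhigh and 1572 in GFPlow cells. *Krt84* and *Krt36*, known from filiform papillae, had the largest folds toward GFPlow cells, −26.4 and −23.4. Trichohyalin is known from the same papillae, and the part of these cells in the values of *Tchh*, *Rptn* and *Crnn* was not tested. All 7 basal keratinocyte markers were higher in GFPlow cells, with a median difference of −0.38 on the log2(FPKM + 1) scale, but only 1, *Itgb4* (fold −1.57), was enriched. GFPlow cells also held the higher summed FPKM of fibroblast markers given above, and the part of either in the folds of the envelope genes was not tested. With GFPlow values scaled to the pan-epithelial markers, 8 members were enriched in GFPhigh cells, *Tgm3*, *Dmkn* and *Sbsn* no longer being among them, and 5 in GFPlow cells, out of 20. The shares among all 10923 genes at 5 FPKM on that scale were 5.69% and 18.8%.

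**Figure D4:**
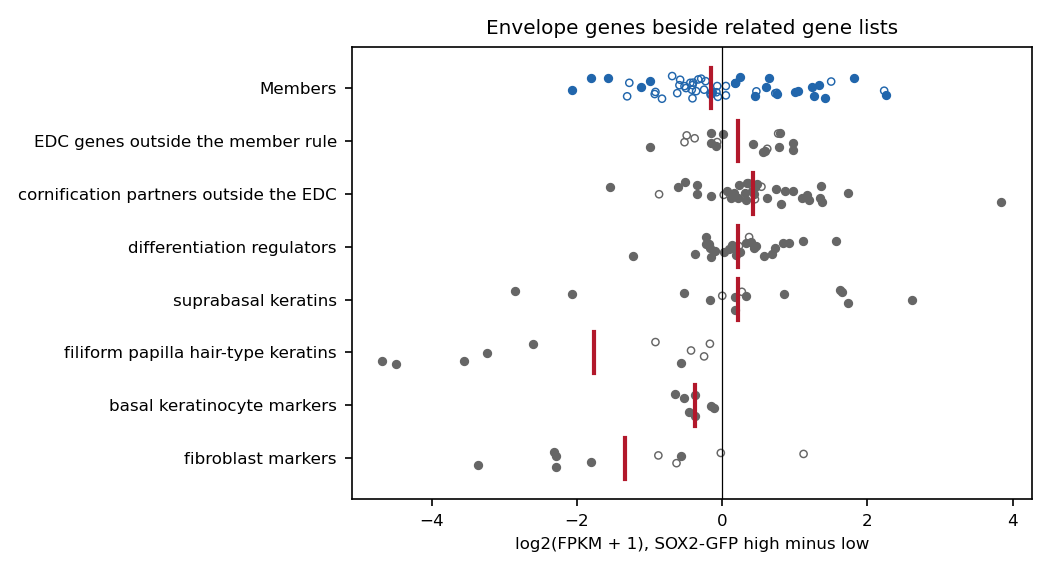
Difference, GFPhigh minus GFPlow, in log2(FPKM + 1) (x axis) for each gene of the member list and of related lists (y axis), with filled points for genes at 5 FPKM or more in at least 1 library, open points for lower genes and red bars for list medians. Members spread on both sides of 0 with a median of −0.16, while the hair-type keratins and fibroblast markers lie mostly below 0, with medians of −1.76 and −1.34.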

How the data were processed

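RNAseq libraries of GFPhigh and GFPlow cells were analyzed. Per the submitters' notes and the methods of the study, the authors trimmed single-end reads with Trimmomatic 0.36, mapped them to mm10 with GSNAP, obtained FPKM with Cufflinks 2.2.1 and deposited 1 FPKM column per population, rounded to 2 decimals and headed as a mean. The labels list 1 library per population, so each column was read as 1 library; were it a mean of several, the depth and read numbers would not hold. The annotation used is not given in the sources used here. A deposited signed fold score compares the columns and was not used. Cufflinks' handling of reads that match several genes can change *Sprr2* and *Lce* values. Positions are from GENCODE M21, in which 21479 entries were found; 21 entries typed as not protein-coding were left out, which leaves 21607, and 17 without a number in a population were not compared. Shared windows of 50 nt were sought in the transcripts of all other genes on both strands, and from a share of 20% an FPKM is called uncertain. Depth was sought on FPKM multiplied by exon length less 200 nt, for transcripts of 400 to 1200 nt. No test was run, and the calling code was checked on test input with known answers. Members at 5 FPKM or more in either library and those at 0 in both were named by rule, with lower members named to account for all; of the other lists, up to 2 of the largest folds in each direction, with *Klf4*, chosen after its values were seen. Members and lists were chosen with earlier results of these data known. Alternatives were other FPKM and fold minimums, pseudocounts, scales and filters on low or shared members. Python 3.11.15 and pandas 2.3.3 were used.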

Additional observations from a re-analysis of the deposited data

How the results depend on the processing

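The 11 members enriched in GFPhigh and 5 in GFPlow cells were counted as 8 to 11 and 4 to 5 under most alternatives (10 FPKM, 5 FPKM in both libraries, 2-fold, pseudocounts of 1 and 0.1, the TPM, median-ratio and pan-epithelial scales, and leaving out members with shared windows). At a minimum of 1 FPKM, 13 of 29 members were enriched in GFPhigh and 11 in GFPlow cells, beside 11.9% and 12.1% of all genes. With no minimum these were 18 and 29 of 55, beside 18.1% and 18.8% of all genes, since low members then enter. The median difference over members was −0.68 with a pseudocount of 0.1 and −0.03 with a pseudocount of 5. It had the opposite sign, 0.45, over the 27 members whose mean was 1 FPKM or more, and 0.62 over the 20 at 5 FPKM. Its other values were −0.19 to −0.08. Among the 20 members named at 5 FPKM, *Sbsn* (1.47) and *Tgm3* (1.42) fell under 1.5-fold on the TPM scale, and *Dmkn* (1.43), *Sbsn* (1.33) and *Tgm3* (1.28) on the pan-epithelial scale, where *Lce3c* reversed to −1.03. The TPM and pan-epithelial scales lower every log2 ratio by a shift of −0.10 and −0.24. The pan-epithelial scale and the shared windows in transcripts were added after the data were seen; shared windows in a genome were not run. No paired analysis was possible because there is 1 library per population and no replicate numbers. Depth limits the *Lce* and *Sprr2* values, of which many rest on 10 reads or fewer.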
